A study of Mus musculus with 20 samples.

Results

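The subject is 9 transcription factor genes that set or mark the identity of microglia: Sall1, Spi1, Irf8, Maf, Mef2a, Mef2c, Runx1, Cebpa and Bhlhe41. They were chosen by name, as the entries of the deposited expression files that carry 1 of these symbols, and make up 9 of the 21315 gene symbols listed. Microglia descend from macrophage precursors of the yolk sac, in which the ETS factor PU.1 (encoded by Spi1), RUNX1, C/EBPα (Cebpa) and IRF8 open the enhancers of macrophage genes. In the brain, signals such as TGF-β then hold up a microglial programme that includes the zinc finger factor SALL1, the large MAF factor c-MAF (Maf), the MADS box factors MEF2A and MEF2C, and the basic helix-loop-helix repressor BHLHE41. Sall1 in particular is a gene that separates microglia from other macrophages.

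The libraries came from a mouse study of C3aR, the receptor for the complement fragment C3a encoded by C3ar1, in microglia that face amyloid-β. APP-KI mice carry a humanised App gene with the NL-G-F mutations (Swedish, Iberian and Arctic) under its own promoter, so that amyloid builds up without overexpression of APP, and C3aRKO mice lack C3ar1 in every cell from conception. All mice were 9 months old and of the C57BL/6 strain, and each library is bulk RNA-seq of microglia sorted from the brain of labelled replicates, with males and females used about equally and the sex of single libraries not given. In 14 libraries the sorted microglia were not selected on the receptor: 3 WT libraries, 3 APP-KI, 3 C3aRKO and 5 APP-KI;C3aRKO, from littermates of a cross of C3aRKO with APP-KI mice. The paper gives a CD45mid CD11b+ gate for all sorted microglia. In 6 libraries such cells were then selected on a Td-tomato reporter of C3ar1, which a floxed C3ar1 line carries in homozygous form. These were 3 labelled WT C3aR+ and 3 labelled APP-KI C3aR+, from a cross of that line with APP-KI mice. The C3aR+ libraries thus differ from the others in line, in sort and in series of library numbers, and these cannot be told apart.

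Each library gave between 13939559 reads (APP-KI C3aR+ replicate 3) and 76608464 reads (WT replicate 5) on genes. By condition the totals were 19962604 to 30388941 reads in WT C3aR+, 13939559 to 23086997 in APP-KI C3aR+, 67797819 to 76608464 in WT, 44418969 to 55722037 in APP-KI, 61843354 to 69483570 in C3aRKO and 42239056 to 69658208 in APP-KI;C3aRKO. The deposited values are read counts set relative to the count at the 75th percentile of each library, with no division by gene length, and they are given as scaled values, the deposited value times 35.2 in every library. A single gene can be compared between libraries on this scale, and genes can be compared with each other only after division by exon length, given as scaled value per kb. The 9 genes held from 3181 reads (Spi1 in APP-KI C3aR+ replicate 3) to 126938 reads (Sall1 in WT replicate 4), and intervals cover the spread between replicates only as far as 3 to 5 libraries show it. Differences are log2 ratios from limma, fitted to all genes whose scaled values averaged 1 or more, with their standard error (SE), and a gene is called higher or lower at a Benjamini-Hochberg adjusted p under 0.05 over all genes tested. All 9 genes passed that filter in every comparison. The p-values measure the spread between libraries, each taken as 1 labelled replicate.

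Several libraries stood apart before any comparison. The number of listed genes without a read was 8076 in APP-KI replicate 4, 8624 in C3aRKO replicate 1, 8271 in C3aRKO replicate 2 and 8939 in APP-KI;C3aRKO replicate 1. The same number was 107 in APP-KI replicate 5 and lay between 3876 and 6438 in the other 15 libraries. The 4 with over 8000 and APP-KI replicate 5 all belong to library series 24. The 14 libraries not selected on C3aR come from 2 series of library numbers (24 and 26). Each series holds all 4 genotypes, so the series was a term of the fit. That term does not remove an uneven spread of these libraries over the genotypes. C3aRKO replicates 1 and 2 are the C3aRKO libraries of series 24, while its WT library (replicate 4) had 5775 genes without a read. Within series 24 the many genes without a read and the C3aRKO genotype cannot be told apart against WT. For the identity factors, calls and orders of condition means that change without the 4 libraries with over 8000 such genes are given both ways. Calls of other genes can change too, and those of the gene lists and cell markers are given with no library left out. Without the 4 libraries C3aRKO is a single library (replicate 3) and APP-KI has 2.

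C3ar1 was low in the libraries labelled C3aRKO and also in those labelled WT C3aR+. Among microglia not selected on the receptor, C3ar1 had scaled values of 276, 330 and 340 in WT and of 165, 315 and 388 in APP-KI. It was 68.1, 39.9 and 65.7 in the C3aRKO libraries and 80.4, 77.4, 69.4, 75.9 and 61.9 in the APP-KI;C3aRKO libraries, all below every library of mice with the gene among the 14. In the libraries labelled APP-KI C3aR+ it was 383, 251 and 201, and in those labelled WT C3aR+ it was 71.0, 81.2 and 37.6. The WT C3aR+ libraries therefore lay at the level of the mice without C3ar1, so C3ar1 reads matched neither their genotype nor their selection.

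The cells carried the markers of microglia. All 7 of the markers P2ry12, Tmem119, Cx3cr1, Csf1r, Fcrls, Aif1 and Itgam had reads in all 20 libraries, and their summed scaled value was 21431 to 23128 in WT, 18225 to 20023 in WT C3aR+, 12214 to 22175 in C3aRKO, 11645 to 15440 in APP-KI C3aR+, 7917 to 16225 in APP-KI and 6457 to 18194 in APP-KI;C3aRKO. The most abundant of them was Csf1r, the receptor for the survival factor CSF1, in all 20 libraries. The summed markers of other cells were far lower. By single gene, Slc1a3 of the astrocyte list (condition means 193 to 328) lay at the level of the microglial marker Aif1 (218 to 273). The highest sums for T and NK cells (61.2) and neurons (23.9) came from APP-KI replicate 5, the library with 107 genes without a read. Summed over each list, the scaled value was 29.4 to 363 for monocytes and neutrophils, 0.565 to 61.2 for T and NK cells, 0.0452 to 23.9 for neurons, 208 to 395 for astrocytes (mostly Slc1a3) and 63.1 to 174 for oligodendrocytes (mostly Mbp).

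The summed levels of border macrophage and endothelial markers differed with the APP-KI genotype, the latter through Flt1. The 7 border macrophage markers (Mrc1, Cd163, Lyve1, F13a1, Pf4, Ms4a7 and Cbr2, of which Mrc1 was the most abundant in most libraries) summed to 451 to 1205 in WT, 484 to 713 in WT C3aR+ and 396 to 604 in C3aRKO. They summed to 184 to 414 in APP-KI C3aR+, 269 to 291 in APP-KI and 200 to 361 in APP-KI;C3aRKO. Pf4 was at 0 in APP-KI replicate 4, C3aRKO replicate 2 and APP-KI;C3aRKO replicate 1, and Cbr2 also in the last of these. The 5 endothelial markers (Cldn5, Flt1, Pecam1, Ly6c1 and Slco1a4) summed to 41.3 to 50.3 in WT, 34.8 to 78.9 in WT C3aR+ and 31.2 to 52.7 in C3aRKO, with Pecam1 the most abundant. They summed to 166 to 322 in APP-KI C3aR+, 195 to 254 in APP-KI and 78.7 to 259 in APP-KI;C3aRKO, with Flt1, a VEGF receptor, the most abundant. Pecam1 went the other way, from a mean of 31.5 in WT C3aR+ to 6.64 in APP-KI C3aR+ while Flt1 went from 15.1 to 217, and the mean of each of the other 3 endothelial markers was below 5 in every condition. Cldn5 and Slco1a4 were at 0 in C3aRKO replicates 1 and 2 and in APP-KI;C3aRKO replicate 1, and Ly6c1 was at 0 in the last 2 of these, in WT replicate 4 and in APP-KI replicate 4. In bulk RNA, fewer cells of a type and less RNA per cell cannot be told apart, and the part of these cells in the differences given here was not tested. The cells had been sorted with a CD45mid CD11b+ gate meant for microglia, and what that gate left of other cells was not tested either.

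On GRCm38 the 9 genes lie on 6 chromosomes, and 3 of them share chromosome 8. These are Sall1 (chr8:89027235-89044162, minus strand), Maf (chr8:115682942-115707794, minus strand) and Irf8 (chr8:120736358-120756694, plus strand). Cebpa (chr7:35119293-35121928, plus strand) and Mef2a (chr7:67231163-67372858, minus strand) lie on chromosome 7. The others are Spi1 (chr2:91082390-91115756, plus strand), Bhlhe41 (chr6:145858243-145865558, minus strand), Mef2c (chr13:83504034-83667080, plus strand) and Runx1 (chr16:92601466-92826149, minus strand). Exons of Mef2a overlap those of Lysmd4, a gene at a mean scaled value of 15.8. Maf, Runx1, Cebpa and Bhlhe41 each overlap exons of a further annotated gene that the files do not list, and whether reads were counted by strand is not given in the sources used here.

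Per kb of exon, Sall1 was the most abundant of the 9 in WT microglia, at a scaled value per kb of 320 ± 33.0 (SD, n = 3), above 99.5% of 12221 genes. Cebpa followed at 248 per kb, Spi1 at 116, Maf at 99.0, Irf8 at 96.5, Mef2a at 57.2, Mef2c at 40.4, Runx1 at 27.3 and Bhlhe41 at 25.2. In the APP-KI libraries the order on the same scale was Cebpa at 234 per kb, Sall1 at 162, Irf8 at 113, Spi1 at 86.5, Mef2a at 52.6, Mef2c at 44.2, Maf at 43.0, Bhlhe41 at 40.2 and Runx1 at 30.9. Sall1 was thus no longer first, and Irf8 stood above Maf.

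Sall1, the factor that keeps microglia distinct from other macrophages, was lower in every APP-KI library than in any library without the APP mutations. Its scaled value was 1879, 1627 and 1546 in WT, 1504, 1443 and 1373 in WT C3aR+, and 1614, 1152 and 1644 in C3aRKO. It was 678, 938 and 947 in APP-KI, 858, 975 and 927 in APP-KI C3aR+, and 644, 1139, 994, 925 and 1083 in APP-KI;C3aRKO. The lowest library without the mutations, C3aRKO replicate 2, lay just above the highest with them, APP-KI;C3aRKO replicate 2. The lowest Sall1 value in C3aRKO (replicate 2), APP-KI (replicate 4) and APP-KI;C3aRKO (replicate 1) came in each case from a library among the 4 with the most genes at 0 reads, which also had the lowest summed microglial markers of their conditions (12214, 7917 and 6457), and their part in the level was not tested. From the highest condition mean (WT, 1684) to the lowest (APP-KI, 854) the fold was 1.97. In the order WT, C3aRKO, WT C3aR+, APP-KI;C3aRKO, APP-KI C3aR+ and APP-KI, the step from WT C3aR+ to APP-KI;C3aRKO (483) exceeded the larger SD of the 2 (193), and no other neighbours differed beyond their spread. Without the 4 libraries the lowest mean was that of APP-KI C3aR+ (920), with APP-KI at 943, and the fold was 1.83.

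Maf, a regulator of macrophage self-renewal and of homeostatic gene expression, was split between the genotypes in the same way and with a wider gap. Its scaled value was 830, 868 and 749 in WT, 728, 785 and 645 in WT C3aR+, and 935, 753 and 675 in C3aRKO. With the APP mutations it was 459, 247 and 358 in APP-KI, 390, 404 and 362 in APP-KI C3aR+, and 441, 367, 397, 371 and 413 in APP-KI;C3aRKO. The 11 libraries with the mutations reached from 247 to 459 and the other 9 from 645 to 935, so the groups did not overlap. The condition means had the same order as those of Sall1, from 816 in WT to 355 in APP-KI, a fold of 2.30. The step from WT C3aR+ to APP-KI;C3aRKO (321) exceeded the larger SD (70.6), and the other neighbours differed by less than theirs. When the 4 libraries were left out, APP-KI was at 303 and C3aRKO at 675, below WT C3aR+ (719), and the fold was 2.70. The highest Maf values of APP-KI (459), APP-KI;C3aRKO (441) and C3aRKO (935) came from these 4. Without them APP-KI rested on replicate 6 (358) and on replicate 5 (247), the library with 107 genes without a read, and the part of these libraries was not tested.

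Across all genes with values in this comparison, the ranges of the 11 APP-KI libraries and of the 9 others did not overlap for 5.03% of 12377 genes (332 higher and 291 lower with the mutations). Among the 9 identity factors this held for Sall1 and Maf, both lower. Of the others, Irf8 came nearest, with 10 of 11 APP-KI libraries above all 9 others.

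Irf8, the interferon regulatory factor that microglia need for their development and activation, lay higher in the APP-KI libraries. Its scaled value was 756, 652 and 635 in WT, 609, 603 and 632 in WT C3aR+, and 717, 571 and 629 in C3aRKO. It was 874, 728 and 797 in APP-KI, 873, 970 and 1005 in APP-KI C3aR+, and 1102, 794, 805, 860 and 880 in APP-KI;C3aRKO. APP-KI replicate 5 alone among the 11 lay below a library without the mutations, WT replicate 4. The means fell from 949 in APP-KI C3aR+ through APP-KI;C3aRKO, APP-KI, WT and C3aRKO to 615 in WT C3aR+, a fold of 1.54. The step from APP-KI to WT (119) exceeded the larger SD (73.1) although the libraries overlapped. The highest Irf8 values of APP-KI (874, replicate 4) and APP-KI;C3aRKO (1102, replicate 1) came from libraries among the 4 with the most genes without a read. Without these 4 libraries the order was the same, with smaller means of 763 in APP-KI and 835 in APP-KI;C3aRKO, and WT at 681. The part of these libraries in the step was not tested.

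Bhlhe41, a repressor that acts with its relative BHLHE40 in macrophages, also lay higher in APP-KI, except against C3aRKO. The scaled value was 145, 192 and 172 in WT, 184, 191 and 150 in WT C3aR+, and 308, 136 and 252 in C3aRKO. With the APP mutations it was 298, 225 and 287 in APP-KI, 287, 282 and 385 in APP-KI C3aR+, and 253, 262, 283, 269 and 282 in APP-KI;C3aRKO. Every WT library, of either sort, lay below every library with the mutations, while the 3 C3aRKO libraries reached from the lowest value of all to among the highest. The lowest (136, replicate 2) and the highest (308, replicate 1) of these 3 are both among the 4 libraries with the most genes at 0 reads. No neighbours in the order of the Bhlhe41 means, from 318 in APP-KI C3aR+ to 170 in WT, differed beyond their spread. Without the 4 libraries with the most genes at 0 reads APP-KI;C3aRKO (274) stood above APP-KI (256), with the same ends of the order.

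Mef2a and Spi1 overlapped between libraries with and without the APP mutations. The scaled value of Mef2a, a MADS box factor whose sites are common in microglial enhancers, was 869, 869 and 780 in WT, 1175, 972 and 922 in WT C3aR+, and 1096, 1481 and 1016 in C3aRKO. It was 1017, 636 and 666 in APP-KI, 775, 687 and 670 in APP-KI C3aR+, and 1096, 798, 667, 631 and 608 in APP-KI;C3aRKO. The highest APP-KI library and the highest APP-KI;C3aRKO library are both among the 4 with the most genes without a read, and the other 9 APP-KI libraries lay at or below 798. The means ran from 1198 in C3aRKO to 711 in APP-KI C3aR+, with a step beyond the larger SD from WT C3aR+ to WT (184, SD 134). Leaving out the 4 libraries, they ran from 1023 in WT C3aR+ to 651 in APP-KI.

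Spi1 encodes PU.1, without which no microglia form. Its scaled value was 316, 309 and 312 in WT, 270, 277 and 286 in WT C3aR+, and 260, 257 and 293 in C3aRKO. It was 210, 235 and 254 in APP-KI, 246, 225 and 250 in APP-KI C3aR+, and 152, 263, 265, 262 and 271 in APP-KI;C3aRKO. WT was highest with the narrowest spread, 313 ± 3.47 (SD, n = 3), and APP-KI;C3aRKO replicate 1 was the lowest library. The means reached down to 233 in APP-KI, a fold of 1.34, and only the step from WT to WT C3aR+ (34.9) exceeded the larger SD (8.32). With the 4 libraries left out, C3aRKO (293) stood above WT C3aR+ (278), and the lowest mean was that of APP-KI C3aR+ (240).

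Mef2c, Runx1 and Cebpa overlapped between any 2 conditions, except for Mef2c between WT (595 to 660) and APP-KI C3aR+ (695 to 743). The condition means of Mef2c, which restrains inflammatory responses of microglia, lay between 635 (WT) and 728 (APP-KI;C3aRKO), a fold of 1.15. For Runx1, a factor of early blood and microglial development, they lay between 328 (WT) and 372 (APP-KI), a fold of 1.13. For Cebpa, which directs the myeloid lineage, they lay between 522 (C3aRKO) and 713 (APP-KI;C3aRKO), a fold of 1.37. No neighbours in these orders differed beyond their spread. These orders turned on the 4 libraries with the most genes at 0 reads. Without them Mef2c ran from 618 (C3aRKO) to 720 (APP-KI C3aR+), Runx1 from 299 (APP-KI) to 409 (C3aRKO) and Cebpa from 638 (APP-KI C3aR+) to 758 (APP-KI;C3aRKO). Single libraries ranged from 584 to 916 for Mef2c, 288 to 524 for Runx1 and 342 to 887 for Cebpa.

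**Figure D1:**
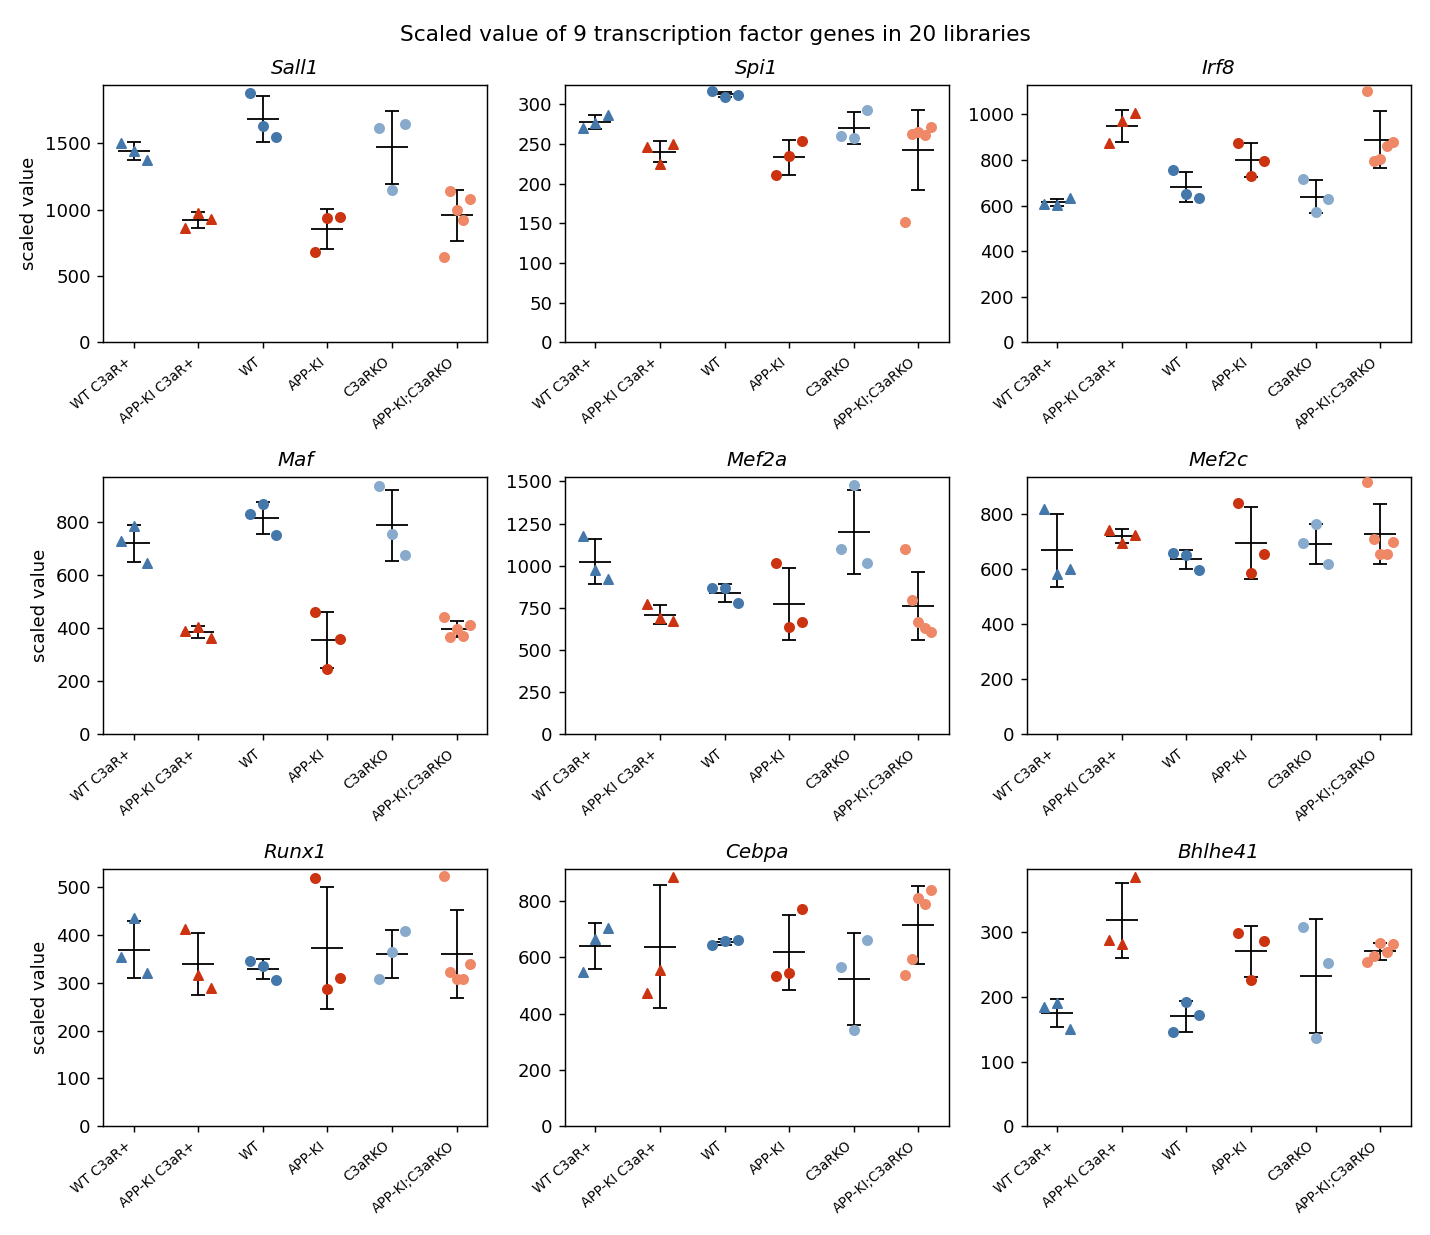
Scaled value (read count over the library's 75th percentile, times 35.2) of the 9 genes in each of the 20 libraries, by condition; triangles are libraries labelled C3aR+, circles the others, horizontal lines the means and bars the SD. Sall1 (644 to 1139) and Maf (247 to 459) lie lower in all 11 APP-KI libraries than in the 9 others.

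Among microglia labelled C3aR+, the APP-KI genotype went with less Sall1, Maf and Mef2a and more Irf8 and Bhlhe41. Sall1 fell to 0.639 of its WT level and Maf to 0.538, while Irf8 rose 1.54-fold and Bhlhe41 1.80-fold (n = 3 and 3). In limma the log2 difference of Sall1 was −0.65 (SE 0.12, adjusted p = 0.00541) and that of Maf −0.90 (SE 0.12, adjusted p = 0.000773). Mef2a fell by −0.52 (SE 0.13, adjusted p = 0.0219). Irf8 rose by 0.62 (SE 0.11, adjusted p = 0.00440) and Bhlhe41 by 0.85 (SE 0.15, adjusted p = 0.00370). For each of these 5 the libraries of the 2 groups did not overlap, and the two-sided exact permutation p was 0.1, the smallest that 3 against 3 libraries allow. Spi1, not called, did not overlap either (225 to 250 against 270 to 286) and had the same exact permutation p.

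In all, 2 of the 9 factors were higher and 3 lower, where 22.7% of 12315 genes were called (1602 or 13% higher and 1195 or 9.7% lower). Of the 4 not called, the log2 difference was −0.21 for Spi1 (SE 0.10, adjusted p = 0.165), 0.13 for Mef2c, −0.12 for Runx1 and −0.05 for Cebpa. The median of all genes was −0.17 under this scaling and −0.03 with median ratio scaling, which moved the share of calls that were higher from 57.3% to 75.3%. Median ratio scaling gave 1845 genes higher and 605 lower, and edgeR gave 1770 and 659. Without WT C3aR+ replicate 3, limma called 1169 higher and 608 lower. Relative to the median of −0.17, Sall1 was at −0.48, Maf at −0.73, Mef2a at −0.35, Irf8 at 0.79 and Bhlhe41 at 1.02. The calls of Sall1, Maf, Irf8 and Bhlhe41 held in 12 of 12 alternatives. The adjusted p of Mef2a reached from 0.0178 to 0.0833 over the 12 alternatives in limma and edgeR. Its call was lost in 6 of them: without WT C3aR+ replicate 1 (−0.42, adjusted p = 0.0833), without WT C3aR+ replicate 2 (−0.55, 0.0546), without APP-KI C3aR+ replicate 2 (−0.50, 0.0657), with no filter (0.0638), with median ratio scaling (−0.38, 0.0813) and in edgeR (−0.41, 0.0523).

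The same comparison in microglia not selected on C3aR gave lower Maf and, less firmly, lower Sall1. Maf was at 0.416 and Sall1 at 0.520 of the WT level (n = 3 and 3, with 14 libraries in the fit), and neither overlapped between the groups. Maf fell by −1.26 (SE 0.20, adjusted p = 0.00201) and Sall1 by −0.94 (SE 0.23, adjusted p = 0.0349), each with an exact permutation p of 0.1. Within the library series, where a group can hold a single library, the differences were −1.30 and −1.17 for Maf and −1.24 and −0.74 for Sall1. None of the 9 factors was higher and 2 were lower, where 4.14% of 12410 genes were called (275 or 2.22% higher and 239 or 1.93% lower). The log2 difference was 0.73 for Bhlhe41 (SE 0.23, adjusted p = 0.106), whose groups did not overlap, −0.35 for Spi1 (SE 0.18, adjusted p = 0.480), whose groups did not overlap either, 0.20 for Irf8 (SE 0.17, adjusted p = 0.804) and −0.27 for Mef2a (adjusted p = 0.776). It was 0.05 for Mef2c, 0.07 for Runx1 and 0.04 for Cebpa.

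In this comparison single libraries decided calls. Of all genes, limma called 152 higher and 66 lower without WT replicate 4, and 415 higher and 422 lower without APP-KI;C3aRKO replicate 1. Over 23 alternatives the adjusted p of Sall1 reached from 0.000344 to 0.316, and its call was lost in 10. Those that leave out a library were without WT replicate 4 (−0.75, adjusted p = 0.316), WT replicate 5 (−0.99, 0.0886), WT replicate 6 (−1.02, 0.0630), APP-KI replicate 4 (−0.82, 0.115), APP-KI replicate 6 (adjusted p = 0.123), APP-KI;C3aRKO replicate 3 (−0.94, 0.0603) and APP-KI;C3aRKO replicate 4 (−0.94, 0.0601). It was also lost with no filter (adjusted p = 0.0795) and with only the 2 groups in the fit, either with the series term (−0.99, 0.0999) or with replicate numbers as blocks (−0.99, 0.0593). Its difference stayed negative throughout, between −1.04 and −0.75. Maf kept its call in 22 of 23 alternatives and lost it with only the 2 groups and the series term in the fit (−1.23, adjusted p = 0.0849). Bhlhe41 was called higher without C3aRKO replicate 1 (0.76, adjusted p = 0.0229) and without C3aRKO replicate 2 (0.70, 0.0154), and Spi1 lower without APP-KI;C3aRKO replicate 1 (−0.40, 0.0337).

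Without the 4 libraries with the most genes at 0 reads, an alternative chosen after the values were seen, limma called 1661 genes higher and 1849 lower. Then 5 of the 9 factors were called: Maf (−1.42, adjusted p = 8.70e-05), Sall1 (−0.86, 0.000344), Spi1 (−0.35, 0.00291) and Mef2a (−0.39, 0.0243) lower, and Bhlhe41 (0.63, 0.000720) higher. This fit holds 10 libraries, with 2 of APP-KI and 3 of WT, and Irf8 was at 0.16 (adjusted p = 0.252).

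In mice without C3ar1, the APP mutations went with lower Maf. Comparing APP-KI;C3aRKO with C3aRKO (n = 5 and 3), Maf was at 0.516 of the C3aRKO level, and its groups did not overlap. It fell by −0.96 (SE 0.18, adjusted p = 0.00470), with −1.06 and −0.78 within the library series. The call was lost with replicate numbers as blocks and only the 2 groups in the fit (−0.96, adjusted p = 0.184), and held in the other 22 of 23 alternatives. None of the 9 factors was higher and 1 was lower, where 6.93% of 12410 genes were called (491 or 3.96% higher and 369 or 2.97% lower). Sall1 and Irf8 did not overlap between the groups either and missed the threshold in limma, at −0.67 (SE 0.21, adjusted p = 0.0750) and 0.50 (SE 0.15, adjusted p = 0.0586). For Sall1, Irf8 and Maf the two-sided exact permutation p was 0.0357, from 56 arrangements of 5 and 3 libraries. These arrangements ignore the library series, and this p is not adjusted over genes.

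Mef2a was at −0.58 in this comparison (SE 0.19, adjusted p = 0.0822), Cebpa at 0.36 (adjusted p = 0.233), Bhlhe41 at 0.24 (adjusted p = 0.543) and Spi1 at −0.24 (adjusted p = 0.422). Mef2c was at 0.12 and Runx1 at 0.02. Of all genes, limma called 759 higher and 638 lower without APP-KI;C3aRKO replicate 1. Irf8 was called higher without APP-KI replicate 4 (adjusted p = 0.0479), without APP-KI replicate 5 (0.0474) and without APP-KI;C3aRKO replicate 2 (0.0457). It was also called higher with a filter at a mean of 5, under median ratio scaling (0.55, adjusted p = 0.0306) and in edgeR (0.55, 0.0400). Sall1 was called lower without APP-KI;C3aRKO replicate 2 (−0.80, adjusted p = 0.0416), and Mef2a without APP-KI replicate 4 (0.0480) and without APP-KI;C3aRKO replicate 1 (−0.71, 0.0176). Without the 4 libraries with the most genes at 0 reads, 1 C3aRKO library (replicate 3) remains, which is assumed to vary like the other groups, so the calls rest on a single C3aRKO library. On that footing limma called 1655 genes higher and 2281 lower, among them Irf8 higher (0.40, adjusted p = 0.0357) and Sall1 (−0.71, 0.00282), Maf (−0.76, 0.00671), Mef2a (−0.63, 0.00652) and Runx1 (−0.36, 0.0235) lower.

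**Figure D2:**
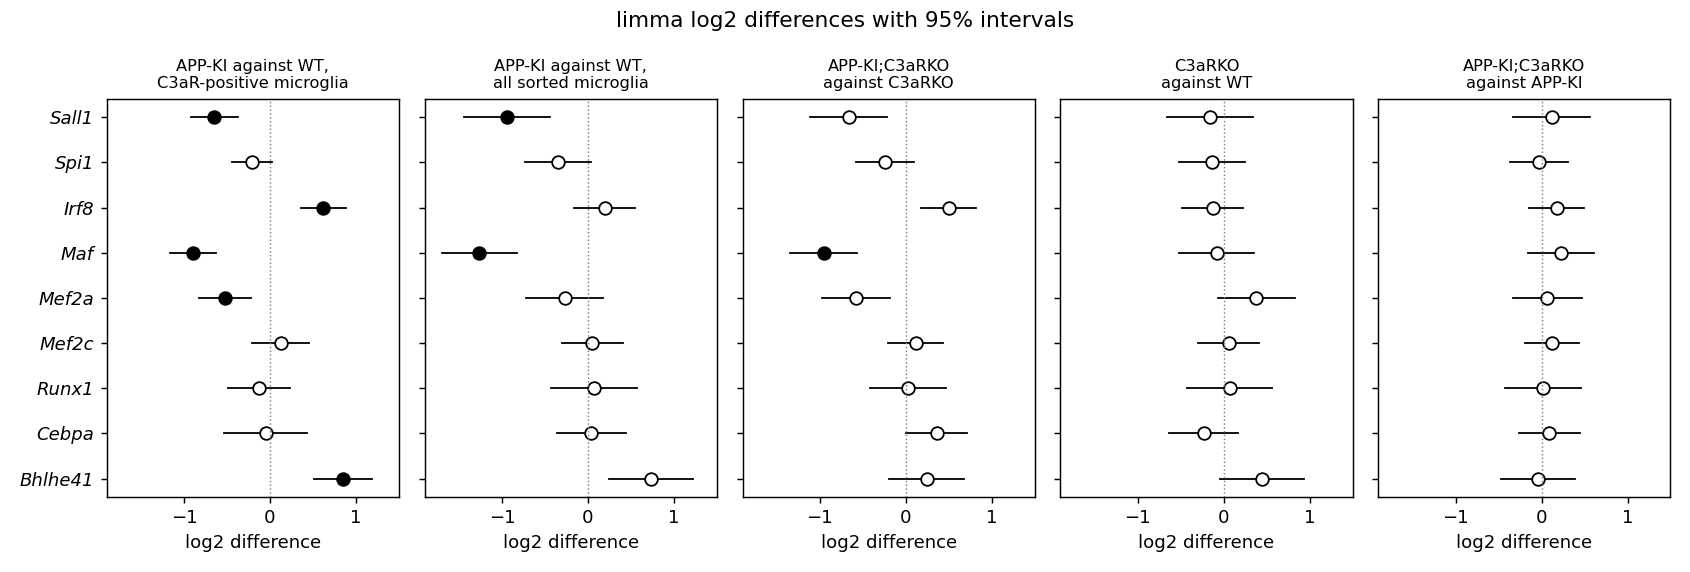
Log2 difference from limma with its 95% interval for the 9 genes in 5 comparisons; filled points have an adjusted p under 0.05 over all genes tested and open points do not. Maf is lower in the 3 comparisons of the APP mutations (−0.90, −1.26 and −0.96), and no point is filled in the 2 comparisons of C3ar1 loss.

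Loss of C3ar1 changed none of the 9 factors past the threshold, with or without the APP mutations. Between C3aRKO and WT (n = 3 and 3), limma called C3ar1 itself, at −2.39 (SE 0.27, adjusted p = 0.00338), and no other gene, or 0.00806% of 12410. Before adjustment, p was under 0.05 for 123 higher and 221 lower genes, and edgeR called 0 higher and 1 lower. Without C3aRKO replicate 3 limma called 1 gene higher and 20 lower. Without WT replicate 4, or with only the 2 groups in the fit, it called 0. The 9 log2 differences lay between −0.23 (Cebpa) and 0.45 (Bhlhe41), with Mef2a at 0.38, and each had an adjusted p of 0.995. Within series 24 (2 C3aRKO libraries and 1 WT) and series 26 (1 and 2), Sall1 was at −0.46 and 0.05. Cebpa was at −0.55 and −0.000221, Mef2a at 0.55 and 0.30 and Bhlhe41 at 0.49 and 0.47.

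Between APP-KI;C3aRKO and APP-KI (n = 5 and 3), the limma call was again C3ar1 alone, at −1.95 (SE 0.24, adjusted p = 0.00971), or 0.00806% of 12410 genes. Before adjustment, p was under 0.05 for 38 higher and 109 lower genes, and edgeR called 0 higher and 1 lower. Without APP-KI replicate 5, and likewise without APP-KI replicate 6, limma called 0. The differences of the 9 factors lay between −0.05 (Bhlhe41) and 0.23 (Maf), each with an adjusted p of 0.998. The 95% interval was −0.33 to 0.56 for Sall1 and −0.16 to 0.61 for Maf. Within series 24 and 26, the latter with 1 APP-KI library, Sall1 was at 0.10 and 0.08 and Maf at 0.25 and 0.14.

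The effect of the APP mutations on the 9 factors was not shown to differ with C3ar1 or with the sort. The interaction with C3ar1, the difference in mice without the receptor gene minus that in mice with it, was 0.28 for Sall1 (SE 0.32), 0.31 for Maf (SE 0.28), 0.30 for Irf8 (SE 0.23) and −0.49 for Bhlhe41 (SE 0.31). In limma each had an adjusted p of 0.998, and 0 of 12410 genes were called (0%), with an unadjusted p under 0.05 for 111 higher and 92 lower and 0 called by edgeR. The interaction with the sort, C3aR+ minus not selected, was 0.34 for Sall1 (SE 0.24), 0.34 for Maf (SE 0.28) and 0.10 for Bhlhe41 (SE 0.23). For Irf8 it was 0.43 (SE 0.19), with an adjusted p of 0.680 in limma. Of 12592 genes 0 were called for this interaction (0%), with an unadjusted p under 0.05 for 555 higher and 347 lower and 0 called by edgeR.

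Set directly against microglia not selected on C3aR, the C3aR+ libraries differed in none of the 9 factors past the threshold. In WT, limma called 0 of 12592 genes (0%), with an unadjusted p under 0.05 for 75 higher and 318 lower and 0 called by edgeR, and Sall1 was at −0.22 and Irf8 at −0.16. In APP-KI it also called 0 of 12592 genes (0%), with an unadjusted p under 0.05 for 125 higher and 326 lower and 0 called by edgeR, and Sall1 was at 0.12 and Irf8 at 0.27.

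Within a library, ratios of a factor that lay higher with the APP mutations to a factor that lay lower separated the genotypes without overlap. These pairs were picked after the values were seen, and no test was made. The ratio of Irf8 to Sall1 per kb was 0.299 to 0.306 in WT, 0.302 to 0.344 in WT C3aR+ and 0.286 to 0.370 in C3aRKO. It was 0.579 to 0.962 in APP-KI, 0.742 to 0.809 in APP-KI C3aR+ and 0.520 to 1.28 in APP-KI;C3aRKO, with no library in between. The ratios of 0.962 (APP-KI replicate 4) and 1.28 (APP-KI;C3aRKO replicate 1) came from libraries among the 4 with the most genes at 0 reads. Irf8 was highest and Sall1 lowest of their conditions there, and their part was not tested. The ratio of Bhlhe41 to Maf per kb was 0.214 to 0.282 in WT, 0.286 to 0.311 in WT C3aR+ and 0.221 to 0.457 in C3aRKO, against 0.797 to 1.12 in APP-KI, 0.856 to 1.31 in APP-KI C3aR+ and 0.704 to 0.889 in APP-KI;C3aRKO.

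The 9 factors also differed in how alike their profiles over the 20 libraries were. Likeness was the root mean square difference of log2 scaled values after each gene was centred on its mean, with lower values more alike. Between pairs of the 9 it was smallest for Mef2c and Runx1 (0.211), which vary little in any case (0.173 and 0.249 from their own means), and largest for Maf and Bhlhe41 (0.850). The search covered 10133 genes, and the 9 factors among them were left out. The genes most like Sall1 were Cd33, a sialic acid receptor of myeloid cells, at 0.0976, Tmem63a at 0.114 and Slco2b1 at 0.115. The closest to Maf were Gna15 at 0.176, Cysltr1, a leukotriene receptor, at 0.179 and Idh2 at 0.193. For Irf8 they were Asap1 at 0.111, Snx30 at 0.118 and Ptpra at 0.120. For Mef2a they were its fellow transcription factor gene Irf2 at 0.0937, Cflar at 0.106 and Lcor at 0.109. The closest to Bhlhe41 were Lrrc8d at 0.188, Slc25a3 at 0.199 and Uap1 at 0.200.

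Relatives and partners of the 9 factors moved more than the factors themselves in a few cases. Of 23 listed relatives (other SALL, SPI, IRF, MAF, MEF2, RUNX, C/EBP and BHLHE genes), 18 were tested in each comparison. In C3aR+ microglia 2 were higher with the APP mutations, Bhlhe40 from 12.8 to 159 (log2 difference 3.51) and the small MAF gene Maff (2.26). There, 3 were lower: Irf4 (−1.36), Cebpd (−1.07) and Irf2 (−0.46). In microglia not selected on C3aR, Bhlhe40 rose from 6.00 to 117 (4.15) and Maff rose by 2.50, and Cebpd fell by −1.33. Against C3aRKO, Bhlhe40 (2.79) and Maff (1.91) rose and Irf4 (−1.59) and Cebpd (−1.10) fell in APP-KI;C3aRKO. Of all genes 13%, 2.22% and 3.96% rose and 9.7%, 1.93% and 2.97% fell in these comparisons. The median of the list was −0.02, −0.07 and −0.05 in the same order, beside −0.17, −0.01 and −0.03 for all genes and −0.12, 0.04 and 0.02 for the 9 factors.

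Factors of the blood and macrophage lineages, 23 listed, were counted beside the share of all genes in each comparison of the APP mutations. In C3aR+ microglia 3 of 22 tested rose (13% of all genes did), Ets2 (1.14), the repressor gene Bcl6 (1.10) and Lmo2 (0.38), and 3 fell (9.7% of all genes did), Ets1 (−1.17), Lyl1 (−0.66) and Ikzf1 (−0.41), with a list median of −0.26. In microglia not selected on C3aR 0 of 21 rose and 3 fell (2.22% and 1.93% of all genes did), Lyl1 (−1.07), Ikzf1 (−0.62) and Fli1 (−0.56), with a median of −0.18. Ets1 went the other way there, at 0.71, and was not called, with means of 21.0 in WT and 42.3 in APP-KI. Against C3aRKO, 0 of 21 rose and 1 fell (3.96% and 2.97% of all genes did), Smad3 (−0.53), a mediator of TGF-β signals, with a median of −0.28.

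Signal-dependent factors, 30 listed and 29 tested, were led by Hif1a, the oxygen-sensitive factor that drives glycolytic genes. Hif1a rose by 2.13 in C3aR+ microglia, by 2.11 in those not selected and by 1.90 against C3aRKO. In C3aR+ microglia 7 of 29 rose (13% of all genes did), among them the stress factor gene Atf3 (1.85) and Nr4a1 (1.07), and 3 fell (9.7% of all genes did): Klf2 (−1.15), Jun (−0.87) and the NF-κB subunit gene Rel (−0.67). In the other comparisons Hif1a was 1 of 1 that rose and Rel 1 of 1 that fell, at −0.66 in microglia not selected (2.22% of all genes rose and 1.93% fell) and −0.90 against C3aRKO (3.96% rose and 2.97% fell). From WT to APP-KI in microglia not selected, the means of Nr4a1 (100 to 65.7) and Jun (953 to 1240) went opposite to C3aR+ microglia. Those of Atf3 (200 to 502) and Klf2 (141 to 65.9) went the same way, and none of these was called there. The list medians were −0.07, −0.05 and −0.02.

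Homeostatic microglial genes, several of which are known to depend on Sall1, had lower medians with the APP mutations than all genes tested. Of 13 tested in C3aR+ microglia 0 rose and 6 fell (13% and 9.7% of all genes did), with a median of −0.66, among them Tmem119 (−1.45), the ADP receptor gene P2ry12 (−1.04) and Selplg (−0.86). Not selected on C3aR, 0 of 13 rose and 2 fell (2.22% and 1.93% of all genes did), the fructose transporter gene Slc2a5 (−1.40) and Siglech (−0.70), with a median of −0.71. Against C3aRKO, 0 rose and 1 fell (3.96% and 2.97% of all genes did), Siglech (−0.69), with a median of −0.45. This list shares P2ry12, Tmem119, Cx3cr1, Csf1r and Fcrls with the microglial markers. The summed markers were lowest for their conditions in APP-KI replicate 4 (7917), C3aRKO replicate 2 (12214) and APP-KI;C3aRKO replicate 1 (6457). These libraries are among the 4 with the most genes at 0 reads, and their part in the medians was not tested. In the 2 comparisons of C3ar1 loss no gene of these 4 lists was called by limma.

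In limma the other cell markers gave these counts for the APP mutations. Of 7 border macrophage markers 5 fell in C3aR+ microglia, 2 in those not selected (Mrc1 −1.69 and F13a1 −1.38) and 2 against C3aRKO (Mrc1 −1.19 and F13a1 −0.97), and 0 rose. Of all genes 13%, 2.22% and 3.96% rose and 9.7%, 1.93% and 2.97% fell in these comparisons. Of 4 endothelial markers tested Flt1 rose in each, by 3.75, 4.26 and 3.80, and Pecam1 fell in C3aR+ microglia (−2.09). Slc1a3 fell (−0.55) and Gfap rose (2.58) in C3aR+ microglia, Mbp rose there (1.07) and against C3aRKO (1.06), and Ccr2 fell against C3aRKO (−1.43). Of 6 markers of T and NK cells 1 to 3 passed the filter and were tested, and of 7 of neurons 2, and none was called. Of the 7 microglial markers Tmem119, P2ry12 and Cx3cr1 (−0.74) fell in C3aR+ microglia and 0 in the others.

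Several of these factors are known to bind near the starts of macrophage genes, and the table of RefSeq promoters used here held 13 for 7 of the 9 genes, without an entry for Spi1 and Maf. In the 250 bases before each start, 6 motifs were sought on both strands, and their share among 32851 promoters of all genes is given beside each: AGGAAGT for PU.1 (7.69%), GAAANNGA for IRF factors (18.1%), TTGCNNAA for C/EBP (9.56%), TGTGGT for RUNX (14%), the E-box CACGTG of BHLHE factors (6.02%) and TGCTGAC for MAF (3.81%). Irf8 held 2 matches to the IRF letters in its upstream promoter and 1 in its downstream promoter, Mef2a held 1, 1 of the 3 promoters of Mef2c held 1, and the E-box was present once in that of Bhlhe41 and once in 1 of the 2 of Runx1. Of the 3 promoters of Sall1, 1 held the PU.1 letters. Shown are the upstream promoters of Sall1 (chr8:89044163-89044412, minus strand), which held none of the 6, of Irf8 (chr8:120736108-120736357, plus strand) and of Mef2a (chr7:67372859-67373108, minus strand), as genes called lower, higher and lower in C3aR+ microglia. Capitals mark the IRF letters on GRCm38.p6, and a match describes the letters only.
Sall1: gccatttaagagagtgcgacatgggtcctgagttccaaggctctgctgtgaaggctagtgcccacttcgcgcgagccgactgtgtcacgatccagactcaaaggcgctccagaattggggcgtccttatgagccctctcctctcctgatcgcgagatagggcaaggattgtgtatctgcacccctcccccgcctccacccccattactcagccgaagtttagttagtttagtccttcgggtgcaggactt
Irf8: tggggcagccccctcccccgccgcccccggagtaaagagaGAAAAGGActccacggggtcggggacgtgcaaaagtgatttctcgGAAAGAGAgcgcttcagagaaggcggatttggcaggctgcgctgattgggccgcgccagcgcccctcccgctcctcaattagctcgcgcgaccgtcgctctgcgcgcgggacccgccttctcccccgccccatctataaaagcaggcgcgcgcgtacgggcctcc
Mef2a: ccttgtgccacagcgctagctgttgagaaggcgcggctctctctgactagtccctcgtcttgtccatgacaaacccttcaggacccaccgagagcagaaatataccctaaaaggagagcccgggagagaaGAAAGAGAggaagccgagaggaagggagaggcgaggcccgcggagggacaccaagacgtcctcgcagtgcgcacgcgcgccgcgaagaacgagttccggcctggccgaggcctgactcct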

How the data were processed

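The authors' notes give adapter trimming with cutadapt, alignment to mm10 with TopHat2, counting with featureCounts and tests with DESeq2. Library preparation used a SMARTer Pico kit with molecular identifiers, and their use in counting is not given in the sources used here. The signal values, as deposited by the authors, had been made by dividing the read count of each gene by the library's count at the 75th percentile. Each was checked to be a whole number of reads times 1 step per library (tolerance 0.01 reads), which held for 100% of values, and reads were recovered from it. Scaled values were log2 transformed after adding 1. Tests used limma 3.58.1 (mean-variance trend, R 4.3.3) on genes whose scaled values averaged 1 or more in the libraries fitted, with p-values adjusted by Benjamini-Hochberg. The 14 libraries not selected on C3aR were fitted together with a term for library series, read from the library numbers, the 6 C3aR+ libraries alone, and the 12 WT and APP-KI libraries together for comparisons with the sort. Not every library correlated best with its own replicate number, so the main fits used no block, and whether the numbers pair libraries was not settled. edgeR 4.0.16 on recovered reads was an alternative. Exact permutation tests were two-sided on these log2 values of single libraries, ignored the library series and were not adjusted over genes. Exon lengths and positions came from the GENCODE M21 annotation, and promoters from RefSeq.

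From each list, the named genes were up to 3 with the largest rise and up to 3 with the largest fall among those called whose libraries did not overlap between the groups. The genes most like a factor were the 3 with the smallest root mean square difference, among genes whose scaled values averaged 5 or more, for each factor called in any comparison. The 9 factors, the gene lists and the cell markers were chosen with earlier results of these data known, and 1 gene was dropped from the microglial lists after the values were seen, for a reason unrelated to them. Python 3.11.15, numpy 2.4.6, pandas 2.3.3, scipy 1.17.1 and matplotlib 3.10.9 were used.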

Additional observations from a re-analysis of the deposited data

Results flagged for a closer look

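In the 5 APP-KI;C3aRKO libraries, 4 of 17 values looked at had a library whose distance to its nearest neighbour was over 0.71 of the whole range on the log2 scale (Dixon's 95% value for 5 libraries), where chance gives about 5% for each value. In each of these 4 it was replicate 1, the library with 8939 genes without a read. Spi1 had a scaled value of 152.101 there, with 262 to 271 in the other 4 libraries. Mef2c was at 916.274, with 655 to 711 in the others, and Runx1 at 523.815, with 308 to 338. The summed microglial markers were at 6457.11, with 15716 to 18194 in the others. Without the log step 7 of the 17 values passed, these 4 and also Irf8 at 1102 in replicate 1 (794 to 880 in the others), summed monocyte and neutrophil markers at 165 in replicate 4 (37.4 to 73.5) and summed T and NK cell markers at 29.8 in replicate 2 (0.565 to 3.73). Groups of 3 libraries were not examined in this way.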

How the results depend on the processing

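Where the counts of the 9 factors called changed by more than 1.5 times, the cause was not tested unless stated. APP-KI against WT in microglia not selected on C3aR gave 2 factors: 1 with no filter (more genes tested), 0 with only the 2 groups in the fit, 1 with replicate blocks, 5 without the 4 libraries with the most genes at 0 reads (chosen after seeing the data), and 1 to 3 with each library left out in turn. APP-KI;C3aRKO against C3aRKO gave 1: 2 with a filter at a mean of 5, 2 with median ratio scaling, 2 in edgeR, 0 with replicate blocks, and 1 to 3 with each library left out. Without the 4 libraries it gave 5, on a single remaining C3aRKO library that is assumed to vary like the other groups, so this count is not comparable with the others.

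Log2 differences that changed sign were called in 1 case (Runx1 without the 4 libraries, against a single C3aRKO library), and the cause was not tested. In C3aRKO against WT, Sall1 was at 0.0227 without the 4 libraries (again a single C3aRKO library) and −0.26 to 0.0330 with each library left out, and Maf at −0.20 to 0.0416. In APP-KI;C3aRKO against APP-KI with no series term, Spi1 was at 0.0301, Mef2a at −0.0266 and Bhlhe41 at 0.00791. With replicate blocks they were at 0.26, −0.38 and 0.0867, and without the 4 libraries Spi1 was at 0.11 and Bhlhe41 at 0.0480. With each library left out, Spi1 was at −0.13 to 0.15, Mef2a at −0.11 to 0.22, Bhlhe41 at −0.13 to 0.0605, Sall1 at −0.0163 to 0.28 and Maf at −0.0142 to 0.42. In APP-KI;C3aRKO against C3aRKO, Bhlhe41 was at −0.0562 to 0.51, and Runx1 was at −0.0217 with no series term, −0.36 without the 4 libraries and −0.15 to 0.25 with each left out. Leaving out a library of a group of 3 leaves 2, and within 1 library series a group can be a single library, assumed to vary like the others.

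Fits with replicate numbers as blocks held only the 2 groups compared, so they are set beside fits of those 2 groups with the series term. For APP-KI against WT in C3aR+ microglia, fitted alone in any case, the block gave 5 of the 9 factors (1387 genes higher and 853 lower). For APP-KI against WT not selected on C3aR, Sall1 had a limma adjusted p of 0.0593 with the block and 0.0999 with the series term, and Maf 0.0175 and 0.0849. There limma called 371 genes higher and 303 lower with the block, and 246 and 116 with the series term. For APP-KI;C3aRKO against C3aRKO there were 117 genes higher and 22 lower with the block and 275 and 168 with the series term, with Maf at an adjusted p of 0.184 and 0.00872. For APP-KI;C3aRKO against APP-KI there were 297 higher and 149 lower with the block, a fit that rests on numbers 4 and 5, held by both groups, and 0 and 0 with the series term (edgeR on all 14 libraries 0 and 1, and in limma an unadjusted p under 0.05 for 9 higher and 33 lower). Not every library correlated best with its own number, and the cause was not tested. For APP-KI against WT not selected on C3aR, deviations from the group mean correlated at 0.254, 0.0928 and 0.0947 between libraries of the same number. Between different numbers the correlations ran from −0.223 to 0.201.

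Mef2c, Runx1 and Cebpa, called in no comparison, changed sign in 30 of 309 alternative values and were called in 1 (Runx1, above).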
